A study of Mus musculus with 23 samples.

Results

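The transcripts of in vitro MII oocytes, the mature eggs at the end of a culture route that makes mouse oocytes from stem cells, were set against those of the ES cells from which the route starts. The comparison took every gene with 1 FPKM or more (fragments per kilobase of transcript, scaled to library size) in at least 1 of those groups, which gave 12715 of 22784 genes in the table. It draws on 6 of the 23 samples of the series. The MII oocytes were 3 samples of 99 to 134 oocytes each. They came from primordial germ cell-like cells (PGCLCs) that had spent 21 days in ovaries rebuilt with female E12.5 gonadal somatic cells, followed by 11 days of follicle culture and 16 h of maturation, after which the cumulus cells were stripped off with hyaluronidase. The ES cells were 3 samples of 10000 to 13200 female cells kept in 2i+LIF medium. Both groups are of the strain C57BL/6 X 129. No separate cell line or clone is named for the samples used here. The study also sampled the steps in between, that is day 6 PGCLCs, reaggregated PGCLCs at day 3 with gonadal cells, and secondary follicle oocytes at day 21, and their values are given here for the course of a difference.

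ES cells in 2i+LIF are held in naive pluripotency by inhibitors of MEK and GSK3 and by LIF, and they divide fast, with high ribosome production and glycolysis. A growing oocyte does not divide. It builds the zona pellucida, secretes factors to its follicle cells and stores messenger RNA with short tails for later use, and at maturation it largely stops transcription, so that translation and decay of stored messages shape what is left at metaphase of the second meiotic division (MII). Poly(A) RNA was sequenced, so a message that lost its tail is captured less well, whatever its amount. In bulk samples fewer cells of a type and less RNA per cell cannot be told apart.

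The table holds 1 FPKM value per gene and group, made by the authors from the 3 samples. The spread between samples is therefore unknown, no test can be run, and every difference below is a comparison of 2 values. A difference is that of log2(FPKM + 1), MII oocytes minus ES cells, and genes were called higher or lower from a size of 1 upward, that is 2-fold. The added 1 understates the change of low genes. Summed FPKM was 616260 in MII oocytes against 332557 in ES cells, a ratio of 1.85. For this reason the counts of calls and the list medians are also given with all columns scaled to equal sums, which lowers a difference by up to 0.89. Listed values near 0 need care. Gapdh, a glycolytic enzyme used by every cell, was listed at 0.0822 FPKM in MII oocytes and at 0.757 FPKM in ES cells, and Eno1, another, at 7.64e-06 FPKM in MII oocytes and at 0 in ES cells. Genes with near-identical copies are thus uncertain in this table.

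Markers of each group were checked first. The oocyte markers Zp1, Zp2, Zp3, Gdf9, Bmp15, Mos, Nlrp5, H1foo, Oosp1 and Oosp2 lay between 203 and 11200 FPKM in MII oocytes, against 0.0299 to 7.51 FPKM in ES cells. Of the ES cell markers, Nanog was at 0.238 FPKM in MII oocytes and 253 FPKM in ES cells, and Tdgf1 at 0.425 and 122 FPKM in the same order. Pou5f1, encoding the pluripotency factor OCT4 that oocytes also store, was the marker with the smallest gap, at 220 FPKM in MII oocytes and 845 FPKM in ES cells.

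Of the 12715 genes, 4374 (34.4%) were higher in MII oocytes than in ES cells and 5299 (41.7%) were lower, with 3042 inside 2-fold. With equal sums 3226 (25.4%) were higher and 6516 (51.2%) lower. All 5299 genes called lower were also called lower with equal sums, and 3226 of those called higher stayed so, with no gene changing sides. The median difference over all genes was -0.40, and -1.10 with equal sums. MII oocytes held 9919 genes at 1 FPKM or more against 10830 in ES cells, and 8034 were at that level in both.

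The oocyte profile was the steeper. At 1000 FPKM or more stood 62 genes in MII oocytes against 15 in ES cells, and no gene was that high in both. With equal sums the counts were 40 and 27, again with 0 in both. The 10 highest genes made up 11.7% of summed FPKM in MII oocytes and 5.57% in ES cells, and the 100 highest 32.5% against 20.8%. Zbed3, which encodes a partner of the subcortical maternal complex, was the highest gene of MII oocytes at 13848 FPKM, against 11.1 FPKM in ES cells. H1foo, the oocyte linker histone, followed at 11200 FPKM in MII oocytes against 0.614 FPKM in ES cells. The top of the ES cell column was Rplp1, a protein of the large ribosomal subunit, with 225 FPKM in MII oocytes and 2975 FPKM in ES cells. Genes at 100 FPKM or more numbered 1224 in MII oocytes and 594 in ES cells, but 875 and 874 with equal sums, so the counts at both levels depend on the scaling.

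**Figure D1:**
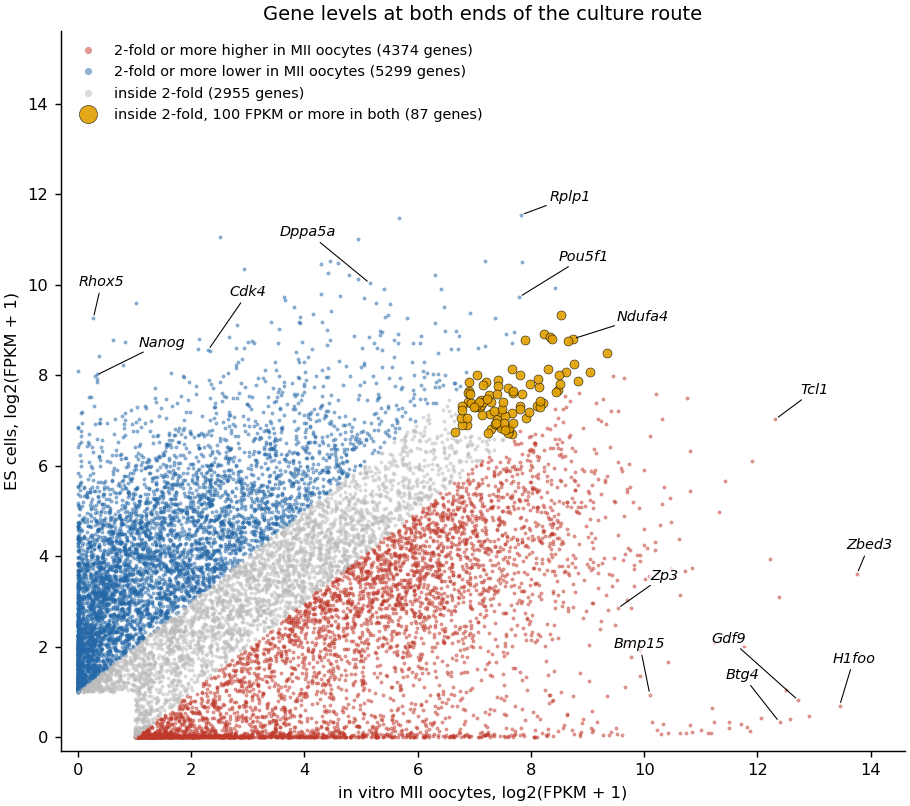
Levels of 12715 genes in in vitro MII oocytes (x axis) and ES cells (y axis), each as log2(FPKM + 1), 1 point per gene. Red and blue points are genes 2-fold or more higher (4374) or lower (5299) in MII oocytes, grey points lie inside 2-fold, and the 87 yellow points are genes inside 2-fold with 100 FPKM or more in both; named points include H1foo at the right and Rhox5 at the left edge.

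The 14 genes with the largest differences were H1foo, Bcl2l10, Rfpl4, Btg4, Gdf9, Plat, Obox5, D6Ertd527e, Oog3, Oosp3, Trim61, Obox2, Obox1 and Tcl1b1. H1foo led with a difference of 12.76. Bcl2l10, an antiapoptotic member of the BCL2 family, had 7736 FPKM in MII oocytes and 0.383 FPKM in ES cells, a difference of 12.45. Btg4 is the adaptor that brings the CCR4-NOT deadenylase to maternal messages, and it stood at 5370 FPKM in MII oocytes and 0.257 FPKM in ES cells. Plat, tissue plasminogen activator, a message known to lie dormant in the growing oocyte and to be translated at maturation, stood at 3607 FPKM in MII oocytes and 0.174 FPKM in ES cells. Rfpl4, Obox, Oog and Tcl1b genes belong to families with similar copies, so their exact levels are uncertain. With equal sums these 14 differences fell between 10.03 and 12.10, so none depends on the scaling.

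The promoters of these genes were read to see what the genes share beyond their level. FIGLA, a basic helix-loop-helix factor of oocytes, is known to act through E-boxes, CANNTG, in zona gene promoters. The E-box hexamer counted here is CACCTG, which reads on the complementary strand as CAGGTG. Of the 14 genes, 10 matched a promoter in the table and 4 did not, namely Bcl2l10, Gdf9, Plat and Oosp3. The stretches shown run from 150 bases before to 20 bases after the RefSeq start (build GRCm38.p6) for the 5 of those 10 that hold this hexamer there. Nanog and Utf1, which encode a naive and a chromatin-bound pluripotency factor and are among the 14 lowest, are printed for contrast. Of the 14 lowest genes 12 had a promoter, and 2 of these, Nanog and Wfdc2, held the hexamer in the stretch. Capitals mark the hexamer. H1foo lies at chr6:115944781-115944950 on the plus strand, Rfpl4 at chr7:5116892-5117061 on the minus strand, Btg4 at chr9:51115851-51116020 on the plus strand, D6Ertd527e at chr6:87104596-87104765 on the plus strand, Tcl1b1 at chr12:105159554-105159723 on the plus strand, Nanog at chr6:122707339-122707508 on the plus strand and Utf1 at chr7:139943706-139943875 on the plus strand.
H1foo: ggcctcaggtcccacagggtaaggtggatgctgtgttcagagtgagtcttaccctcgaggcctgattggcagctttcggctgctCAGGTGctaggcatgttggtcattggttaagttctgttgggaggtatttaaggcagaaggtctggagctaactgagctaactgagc
Rfpl4: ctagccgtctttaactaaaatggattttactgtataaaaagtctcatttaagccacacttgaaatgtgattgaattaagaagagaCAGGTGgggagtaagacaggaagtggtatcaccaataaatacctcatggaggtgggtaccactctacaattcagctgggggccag
Btg4: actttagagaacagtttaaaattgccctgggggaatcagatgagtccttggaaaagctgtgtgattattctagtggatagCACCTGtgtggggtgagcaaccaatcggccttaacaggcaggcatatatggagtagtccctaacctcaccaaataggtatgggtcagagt
D6Ertd527e: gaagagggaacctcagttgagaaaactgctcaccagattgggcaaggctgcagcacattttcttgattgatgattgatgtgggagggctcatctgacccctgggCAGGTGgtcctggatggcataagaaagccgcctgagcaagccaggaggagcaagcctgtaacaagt
Tcl1b1: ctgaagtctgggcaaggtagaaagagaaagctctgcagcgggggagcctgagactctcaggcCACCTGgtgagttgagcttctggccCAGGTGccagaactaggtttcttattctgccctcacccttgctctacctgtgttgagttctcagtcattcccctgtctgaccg
Nanog: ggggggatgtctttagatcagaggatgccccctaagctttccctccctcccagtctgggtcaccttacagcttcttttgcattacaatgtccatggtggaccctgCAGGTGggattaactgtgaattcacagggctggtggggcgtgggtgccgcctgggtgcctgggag
Utf1: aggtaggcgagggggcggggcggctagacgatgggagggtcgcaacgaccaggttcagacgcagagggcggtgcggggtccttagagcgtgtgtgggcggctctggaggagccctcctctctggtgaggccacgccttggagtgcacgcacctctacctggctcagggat

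Counted from the annotated start, the hexamer began at base -66 in H1foo, -65 in Rfpl4, -70 in Btg4, -46 in D6Ertd527e, and at -88 and -63 in Tcl1b1. Nanog held it at -45, so its presence does not separate the groups gene by gene, and Utf1 held none in the stretch. Over longer windows, of 250 bases before to 50 after the start, 10175 of the 12353 compared genes that lie outside chromosome 18 had a promoter in the table. The hexamer was in 36.7% of the 384 promoters of genes higher by 5 or more, against 18.7% of all genes compared and 20.2% of all 32851 promoters. In genes higher by 3 to 5 it was in 20.3% and in those higher by 1 to 3 in 19.9%, near these backgrounds. In genes lower by 3 to 5 it was in 14.7%. With equal sums the share was 40.1% among genes higher by 5 or more, 24.6% among those higher by 3 to 5 and 20.6% among those higher by 1 to 3. Among those lower by 3 to 5 it was 17.1%. Of the genes lower by 5 or more 74.8% had a promoter in the table, which is too few for a share. Promoters with few CpG were also more common among genes higher by 5 or more than among all genes compared. Of their promoters 42.4% held 8 or fewer CpG, against 16.5% of all compared. Of all 32851 promoters the share was larger still, at 54.2%. Split by this, 42.9% of the low-CpG promoters of genes higher by 5 or more held the hexamer, against 26.1% of such promoters in all genes. Of their other promoters 32.1% held it, against 17.3%. By position, the share was highest in the bin from -70 to -41, at 7.81% of promoters of genes higher by 5 or more and 2.07% of all. This hexamer was picked after its counts were seen, from 17 motifs searched on both strands, and a match in the letters is not a binding site. The E-box CAACTG was in 14.58% of promoters of genes higher by 5 or more, against 10.38% of all compared. The E-box CACGTG went the other way, at 8.33% against 10.46%. TAATTG, which is not an E-box, was in 9.90% against 4.91%. A raised share was thus neither common to all E-boxes searched nor limited to them, and binding by FIGLA was not tested.

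**Figure D2:**
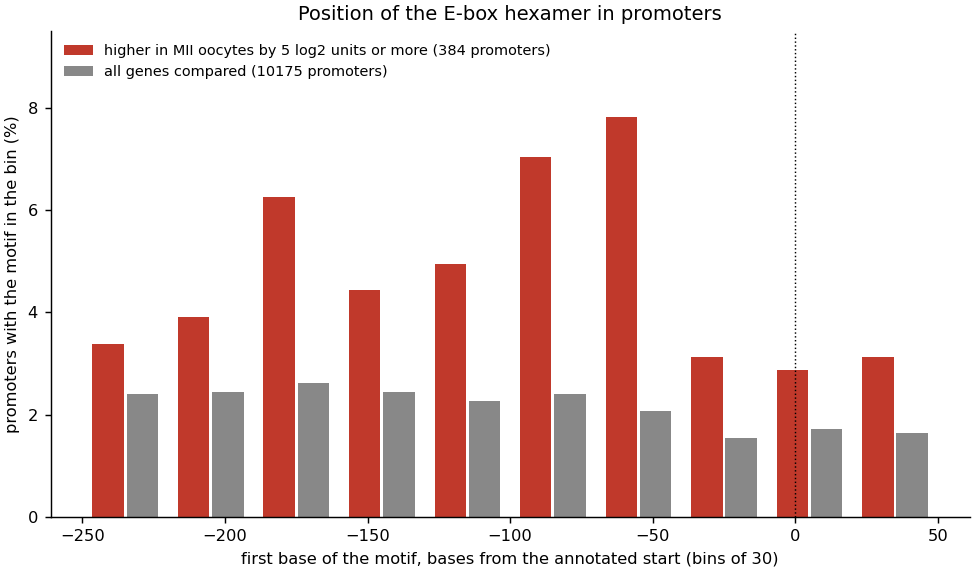
Share of promoters (y axis, percent) whose E-box hexamer, on either strand, begins in each bin of 30 bases (x axis, bases from the annotated start, dotted line at 0). Red bars are 384 promoters of genes higher in MII oocytes by 5 log2 units or more and grey bars 10175 promoters of all genes compared; the red bars peak from -70 to -41 at 7.81%, where the grey bar is at 2.07%.

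The measured genes of the egg coat and of secretion were all higher in MII oocytes. All 10 measured members of the list of 12 were called, with a median difference of 8.69 (8.11 with equal sums) beside -0.40 (-1.10) for all genes. Gdf9 and Bmp15, the growth factors by which the oocyte steers its granulosa cells, stood at 6768 and 1098 FPKM in MII oocytes and at 0.756 and 0.911 FPKM in ES cells. Zona proteins Zp1, Zp2 and Zp3 had 383, 483 and 739 FPKM in MII oocytes, and 0.207, 0.321 and 6.18 FPKM in ES cells. Astl, ovastacin, the protease that cleaves ZP2 after fertilisation, stood at 536 FPKM in MII oocytes and 0.15 FPKM in ES cells. A list member counts as measured where it reached 1 FPKM in MII oocytes or ES cells, and a gene that got there only through the group where it is high had to differ, so the counts over lists are a description. The background for every list count is the share of all genes, 34.4% higher and 41.7% lower (25.4% and 51.2% with equal sums). For these egg coat genes the groups lay orders of magnitude apart in either scaling.

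Maternal-effect genes were mostly higher as well. Of 18 measured, 15 were higher and 1, Smarca4, a chromatin remodelling ATPase, was lower (14 and 2 with equal sums), with a median of 4.97 (4.28 with equal sums). Zar1, an RNA-binding protein needed for the egg-to-embryo transition, had 1133 FPKM in MII oocytes and 0.253 FPKM in ES cells. Within the subcortical maternal complex the members differed in kind. Nlrp5 stood at 203 FPKM in MII oocytes and 0.141 FPKM in ES cells, and Tle6 at 255 and 3.78 FPKM in the same order. Ooep of the same complex stood at 285 FPKM in MII oocytes and at 172 FPKM in ES cells, inside 2-fold, so its message was high at both ends. All 11 oocyte NLRP genes were higher, with a median of 6.55 (6.05 with equal sums), from Nlrp4c at 7.32 FPKM in MII oocytes and 0.116 FPKM in ES cells to Nlrp14 at 276 and 0.393 FPKM. They have close relatives in clusters, which leaves their single levels uncertain.

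Among 13 measured oocyte transcription regulators, 12 were higher (10 with equal sums) and Obox6 was lower. Figla and Nobox, needed to form and keep primordial follicles, were at modest levels, with 4.37 and 47.7 FPKM in MII oocytes and 0.0264 and 0.0996 FPKM in ES cells. The Obox homeobox genes stood far above them, Obox5 at 2892 FPKM in MII oocytes and 0.149 FPKM in ES cells. Zfp57, a zinc finger protein that guards imprints, was the member nearest to the cut, at 385 FPKM in MII oocytes and 185 FPKM in ES cells, and fell inside 2-fold with equal sums.

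Proteins that store messages and those that remove tails were mostly higher. In the storage list 13 of 18 were higher and 3 lower (11 and 4 with equal sums), with a median of 4.14 (3.28 with equal sums). Eif4e1b, an oocyte cap-binding protein, stood at 355 FPKM in MII oocytes and 0.0942 FPKM in ES cells, and Cpeb1, which binds the cytoplasmic polyadenylation element, at 107 and 0.765 FPKM. Lower members included Ddx6, a P-body helicase, with 1.59 FPKM in MII oocytes and 27.8 FPKM in ES cells, and Celf1. In the list of deadenylation and decay 12 of 22 were higher and 5 lower (10 and 7 with equal sums). The catalytic subunits Cnot7 and Cnot6l were at 1250 and 267 FPKM in MII oocytes against 24.8 and 3.3 FPKM in ES cells. Cnot1, the scaffold of the same complex, went the other way, with 5.07 FPKM in MII oocytes and 54.1 FPKM in ES cells, as did Cnot10. Decapping activator Dcp1a was higher, at 1473 FPKM in MII oocytes and 10.6 FPKM in ES cells, while Edc3 was lower.

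Many of these genes have a relative, and 26 pairs of an oocyte-type gene and a relative were compared. The measure was the ratio of the oocyte gene to its partner within each group, which scaling leaves almost as it is. The first gene of each pair was chosen as the oocyte-type member, so the counts over pairs are a description. The oocyte gene was above its partner in 20 pairs in MII oocytes and in 3 pairs in ES cells, and the order turned in 17. The ratio was higher in MII oocytes by 1 log2 unit or more in 23 pairs and lower in 3, also with equal sums, with a median shift of 6.37. Wee2 and Wee1, kinases that inhibit CDK1, showed the largest shift of 13.20. Wee2 had 738 FPKM in MII oocytes and 0.05 FPKM in ES cells, whereas Wee1 had 1.15 FPKM in MII oocytes and 27.7 FPKM in ES cells. Tet3 and Tet1, oxidases of 5-methylcytosine, came next, with Tet3 at 847 FPKM in MII oocytes and 3.12 FPKM in ES cells and Tet1 at 0.411 and 37.3 FPKM. For poly(A)-binding proteins, Pabpc1l had 37 FPKM in MII oocytes and 0.104 FPKM in ES cells, and Pabpc1 5.99 and 548 FPKM. Npm2, nucleoplasmin, drew level with Npm1 in MII oocytes, at 283 and 300 FPKM, while in ES cells the same genes were at 0.311 and 483 FPKM. The 3 pairs that went against the rest were Rec8 over Rad21, Stag3 over Stag2 and Ccnb3 over Ccnb1. Rec8, the meiotic cohesin subunit, was listed at 0 in MII oocytes and at 7.51 FPKM in ES cells, while Rad21 had 224 FPKM in MII oocytes and 66.6 FPKM in ES cells. Partners were not uniformly down, since 11 of 26 were lower and 10 higher in MII oocytes.

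**Figure D3:**
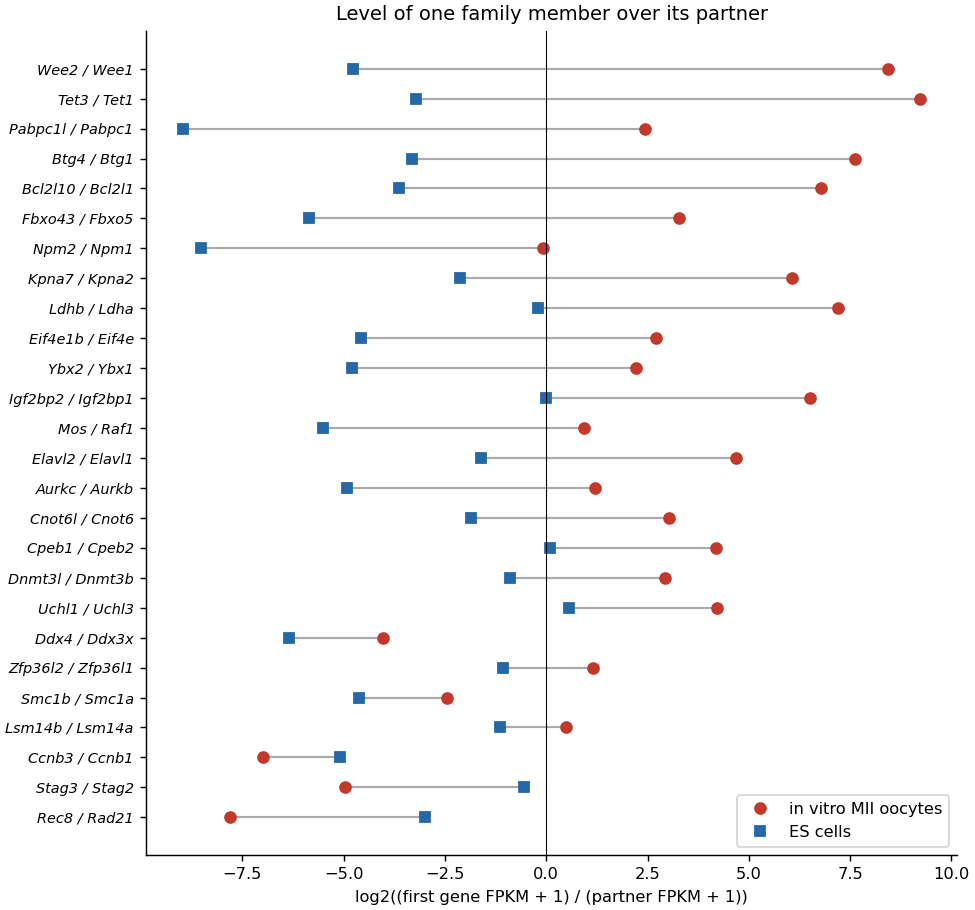
Ratio of an oocyte-type gene to its relative in each of 26 pairs (rows), as log2 of (FPKM + 1) over (FPKM + 1) on the x axis, with red circles for in vitro MII oocytes and blue squares for ES cells. The circle lies to the right of the square in 23 pairs, with Wee2 over Wee1 showing the largest shift of 13.20, and to the left in the bottom 3.

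Cell cycle genes were split by the job they do. Of 24 genes of the meiotic arrest and its control, 11 (45.8%) were higher and 8 (33.3%) lower, beside 34.4% and 41.7% of all genes. With equal sums 8 (33.3%) were higher and 9 (37.5%) lower, beside 25.4% and 51.2% of all genes. Mos, the kinase behind the cytostatic arrest of eggs, had 1204 FPKM in MII oocytes and 0.115 FPKM in ES cells, and Fbxo43 (EMI2), the inhibitor of the anaphase-promoting complex in MII, had 234 and 0.0189 FPKM. Ccnb1, cyclin B1, was higher with 301 FPKM in MII oocytes and 33 FPKM in ES cells. Its kinase Cdk1 was lower, with 2.27 FPKM in MII oocytes and 56 FPKM in ES cells. Of the spindle checkpoint and aurora list, 11 of 18 (61.1%) were higher and 2 (11.1%) lower, and 7 (38.9%) and 2 (11.1%) with equal sums. Pttg1, securin, which holds back separase, reached 3823 FPKM in MII oocytes and 67.5 FPKM in ES cells, and Bub1b 777 and 58.2 FPKM. The lower members were Aurkb and Bub1, with 13.4 and 4.16 FPKM in MII oocytes and 49.9 and 33.9 FPKM in ES cells.

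Genes of replication ran lower. That list had 5 (13.5%) higher and 21 (56.8%) lower of 37, beside 34.4% and 41.7% of all genes. With equal sums 3 (8.11%) were higher and 26 (70.3%) lower, beside 25.4% and 51.2% of all genes. Its median was -1.71 (-2.54 with equal sums). Lig1, the ligase that joins Okazaki fragments, had 2.29 FPKM in MII oocytes and 101 FPKM in ES cells. The origin recognition complex, which marks where replication starts, was divided. Its subunits Orc1, Orc5 and Orc6 were higher, Orc3 was lower, and Orc2 and Orc4 were inside 2-fold (Orc2 lower with equal sums). Orc6 and Orc5 had 324 and 247 FPKM in MII oocytes and 50.2 and 39 FPKM in ES cells. Mcm2 and Mcm4 of the helicase ring were inside 2-fold, at 176 and 87 FPKM in MII oocytes and 113 and 81.6 FPKM in ES cells. Mcm3, Mcm5, Mcm6 and Mcm7 of the same ring were lower, from 5.87 to 38.4 FPKM in MII oocytes and from 78.1 to 142 FPKM in ES cells. Genes of the G1 phase lay nearer to the background, with 8 of 23 (34.8%) higher and 12 (52.2%) lower, beside 34.4% and 41.7% of all genes (5 and 15 with equal sums). Cdk4, the kinase of D-type cyclins, had 3.91 FPKM in MII oocytes and 373 FPKM in ES cells, a difference of -6.25, and Ccnd1 had 0.0716 and 44.3 FPKM. On the higher side, E2f5, a repressive E2F, had 1576 FPKM in MII oocytes and 19.9 FPKM in ES cells, and Rb1, the retinoblastoma protein that restrains E2F, had 116 and 1.71 FPKM. Not every inhibitor of the G1 phase was high, as Cdkn1a, an inhibitor of CDKs, had 2.41 FPKM in MII oocytes and 91.1 FPKM in ES cells. Targets of p53, of which Cdkn1a is one, were lower in 12 of 17 and higher in 3 (14 and 2 with equal sums).

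Genes of germ cells were mostly higher, and those of meiotic prophase were mixed. Of 17 germ cell genes 11 (64.7%) were higher and 5 (29.4%) lower, beside 34.4% and 41.7% of all genes. With equal sums 9 (52.9%) were higher and 5 (29.4%) lower, beside 25.4% and 51.2% of all genes. Their median was 2.93 (2.24 with equal sums). Dazl, an RNA-binding protein of germ cells, had 355 FPKM in MII oocytes and 7.86 FPKM in ES cells, and Ddx4 (the mouse vasa homolog) had 44.7 and 0.812 FPKM. Nanos3, needed for early germ cell survival, was listed at 0 in MII oocytes and at 1.85 FPKM in ES cells. In the prophase list 10 of 21 (47.6%) were higher and 8 (38.1%) lower, and 9 (42.9%) and 8 (38.1%) with equal sums. Sycp3 and Tex12, structural proteins of the synaptonemal complex, stood at 115 and 88.2 FPKM in MII oocytes and at 2.43 and 0.334 FPKM in ES cells. Syce1 of the same complex went the other way, with 0.00958 FPKM in MII oocytes and 4.9 FPKM in ES cells. Mlh3, a mismatch-repair protein of crossovers, had 0.0667 FPKM in MII oocytes and 6.38 FPKM in ES cells.

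Chromatin genes were divided within families. For DNA methylation 7 of 19 (36.8%) were higher and 8 (42.1%) lower, near the 34.4% and 41.7% of all genes. With equal sums 5 (26.3%) were higher and 10 (52.6%) lower, near the 25.4% and 51.2% of all genes. The median was -0.24 (-1.08 with equal sums), beside -0.40 (-1.10) for all genes. Dppa3 (STELLA), which protects the maternal genome from demethylation, had 835 FPKM in MII oocytes and 17.2 FPKM in ES cells. Dnmt1, the maintenance methyltransferase, had 334 and 83 FPKM, and Dnmt3l, the cofactor that sets oocyte imprints, 147 and 11.1 FPKM. Uhrf1, the partner of DNMT1 that reads hemimethylated DNA, was inside 2-fold, with 167 FPKM in MII oocytes and 123 FPKM in ES cells. In the polycomb list 16 of 32 (50%) were higher and 10 (31.25%) lower. With equal sums 13 (40.6%) were higher and 12 (37.5%) lower. The polycomb median was 1.02 (0.16) beside -0.40 (-1.10) for all genes. Bmi1, Phc2, Cbx2 and Pcgf1, of PRC1, were higher, Bmi1 with 599 FPKM in MII oocytes and 4.23 FPKM in ES cells. Their relatives Pcgf2, Phc1 and Cbx7 were lower, with 0.837, 25.6 and 1.89 FPKM in MII oocytes and 41.8, 75.9 and 55.7 FPKM in ES cells. The catalytic and core subunits of PRC2, Ezh2, Suz12 and Eed, were at 440, 266 and 216 FPKM in MII oocytes and 56.7, 89.8 and 87.9 FPKM in ES cells, but Suz12 and Eed fell inside 2-fold with equal sums. Among histone variants and their chaperones 8 of 23 (34.8%) were higher and 8 (34.8%) lower, beside 34.4% and 41.7% of all genes. With equal sums 6 (26.1%) were higher and 12 (52.2%) lower, near the 25.4% and 51.2% of all genes. H2afy, macroH2A1, had 2.08 FPKM in MII oocytes and 87.9 FPKM in ES cells. The chaperones Asf1a and Asf1b had 215 and 340 FPKM in MII oocytes and 19.8 and 28.6 FPKM in ES cells.

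On the side of ES cells, the 14 largest differences were those of Rhox5, Bex1, Mt2, Asns, Ifitm2, Igfbp2, Tdh, Nanog, Psat1, Slc2a3, Trap1a, Mt1, Wfdc2 and Utf1. Rhox5, an X-linked homeobox gene, had 0.206 FPKM in MII oocytes and 609 FPKM in ES cells, a difference of -8.98. Tdh, threonine dehydrogenase, on which mouse ES cells rely, stood at 0.256 FPKM in MII oocytes and 262 FPKM in ES cells. Asns and Psat1 make asparagine and serine, Slc2a3 is a glucose transporter, and Mt1 and Mt2 are metallothioneins, so the group mixes pluripotency with metabolism. In the other 11 the level ran from 0.144 to 6.61 FPKM in MII oocytes and from 183 to 2138 FPKM in ES cells.

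Naive pluripotency genes were lower in 15 of 18 (16 with equal sums), with a median of -4.53 (-5.19 with equal sums), the lowest list median as deposited. With equal sums that of the small-subunit ribosomal genes was lower still, at -5.21. Klf5, Fgf4 and Nr0b1 had 0.138, 0.035 and 0.139 FPKM in MII oocytes and 103, 91 and 88.3 FPKM in ES cells. Dppa5a, a germ cell and ES cell RNA-binding protein, kept 34.7 FPKM in MII oocytes against 1042 FPKM in ES cells. The other direction was taken by Tcl1, a coactivator of AKT, with 5104 FPKM in MII oocytes and 129 FPKM in ES cells, and by Gbx2, a homeobox gene, with 13.5 and 5.9 FPKM, which was inside 2-fold with equal sums. Of 13 general pluripotency genes 8 were lower and 2 higher (9 and 2 with equal sums). Sox2, the partner of OCT4, had 7.83 FPKM in MII oocytes and 219 FPKM in ES cells. Lin28a, which blocks let-7 maturation, had 320 FPKM in MII oocytes and 20.9 FPKM in ES cells, and Sall4, a zinc finger factor, 370 and 49.9 FPKM. Mycn, the MYC family member of ES cells, stood at 0.187 FPKM in MII oocytes and 60.6 FPKM in ES cells, and Mxd1, an antagonist that competes for MAX, at 153 and 1.59 FPKM.

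Genes for ribosomal proteins and the respiratory chain were lower almost throughout. Of 45 large-subunit ribosomal protein genes 44 were lower and of 31 small-subunit genes 31, the same counts as with equal sums, with medians of -3.35 and -4.49 (-4.01 and -5.21 with equal sums). Many of these genes have processed copies in the genome and several were listed at 0, so single levels are uncertain. Rpl8, of the large subunit, stood at 50.1 FPKM in MII oocytes and 2831 FPKM in ES cells. Ribosome assembly genes were lower in 24 of 32 and higher in 1 (30 and 0 with equal sums). Initiation factors were lower in 25 of 40 and higher in 9 (28 and 6 with equal sums). EIF3, the large scaffold complex, was lower in 11 of its 12 listed subunits, with Eif3c at 4.35 FPKM in MII oocytes and 157 FPKM in ES cells, and Eif3i alone was inside 2-fold. The cap-binding Eif4e3 had 539 FPKM in MII oocytes and 0.0769 FPKM in ES cells.

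Nuclear genes of oxidative phosphorylation were lower in 67 of 70 and higher in none (68 and none with equal sums), with a median of -3.04 (-3.87). Uqcrc1, a core subunit of complex III, had 2.6 FPKM in MII oocytes and 250 FPKM in ES cells. The 3 inside 2-fold were Ndufa4, Sdha and Cox8a. The proteasome list was lower in 24 of 31 (29 with equal sums) and higher in Psma2 and Psmd3, both inside 2-fold with equal sums. In glycolysis 18 of 22 were lower and 2 higher (18 and 1 with equal sums). Aldoa, aldolase, had 21.1 FPKM in MII oocytes and 683 FPKM in ES cells, and the glucose transporter Slc2a3 0.259 and 229 FPKM. The subunits of lactate dehydrogenase went opposite ways, with Ldhb at 1724 FPKM in MII oocytes and 179 FPKM in ES cells and Ldha at 10.7 and 205 FPKM. Enzymes of cholesterol synthesis were lower in 15 of 23 (16 with equal sums), such as Ebp at 0.298 FPKM in MII oocytes and 42.2 FPKM in ES cells. They were higher in 5 (4 with equal sums), among them Hmgcs1 and Sc5d, at 417 and 215 FPKM in MII oocytes and 32.7 and 15.8 FPKM in ES cells.

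**Figure D4:**
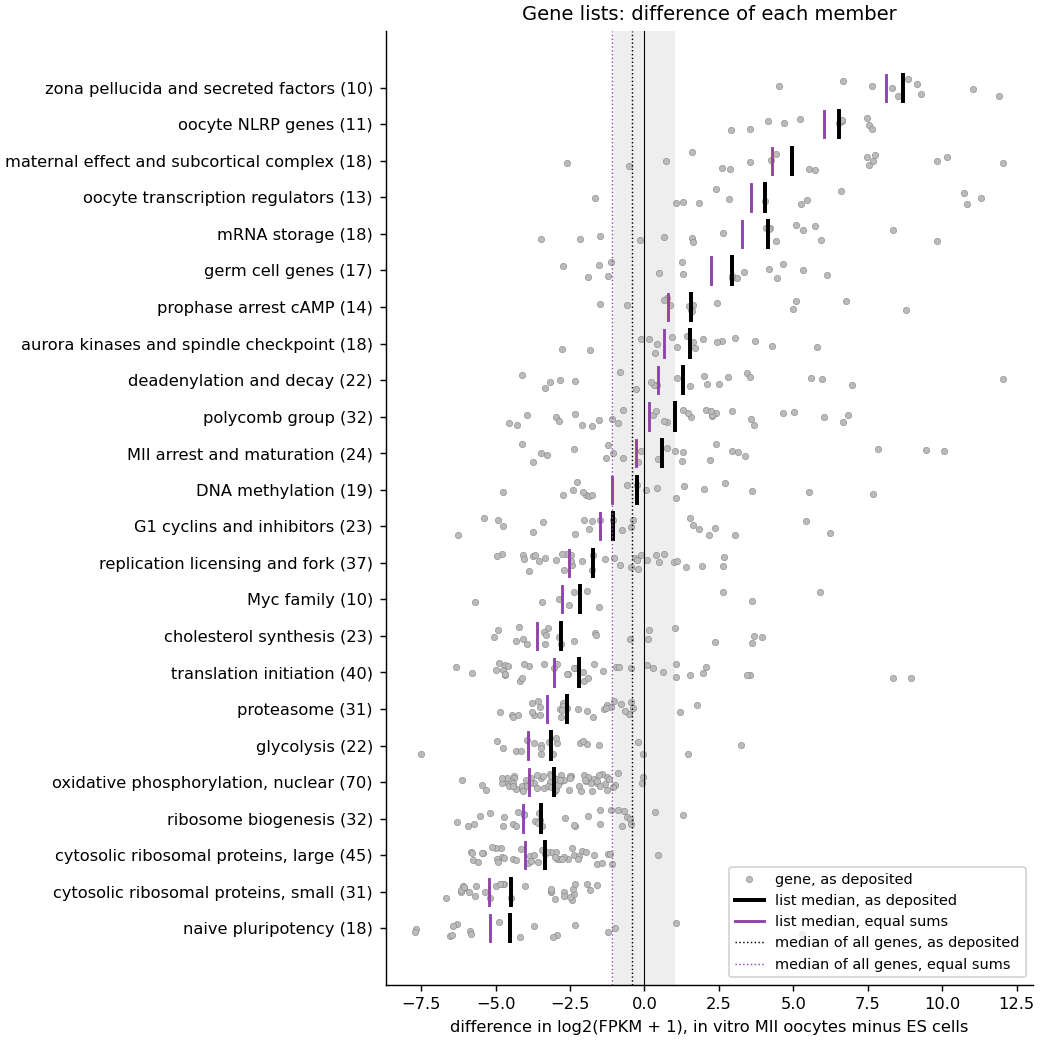
Difference of each gene (grey points, x axis, log2(FPKM + 1), in vitro MII oocytes minus ES cells) in 24 gene lists (rows, number of genes compared in brackets), with list medians as deposited (black bars) and with equal sums (purple bars). The grey band is inside 2-fold and dotted lines are the medians of all genes, -0.40 as deposited and -1.10 with equal sums; egg coat genes lie at the top with a median of 8.69 and naive pluripotency genes at the bottom with -4.53.

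Transcript length, taken as that of the longest transcript of a gene, moved with these differences. Genes with transcripts under 1000 bases were lower in 60.8% and higher in 24.6% of 745, while of 3973 genes with 4000 bases or more 33.1% were lower and 41.4% higher. With equal sums the lower shares were 66.2% and 42.8%. The median length was 936.5 bases for the oxidative phosphorylation list and 946 and 887 bases for the ribosomal lists, against 3039 bases over all genes. The zona and secreted list, which was higher, had a median of 1558 bases. The part of length in these results was not tested.

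Genes high at both ends were few. Of the 134 genes at 100 FPKM or more in both, 87 lay inside 2-fold, 29 were higher in MII oocytes and 18 lower. With equal sums 93 genes met the same rule, of which 49 did so in both scalings. Ndufa4, a subunit of the respiratory chain, was the highest of the 87 by its lower value, with 427 FPKM in MII oocytes and 445 FPKM in ES cells. Rps27l, a p53-responsive ribosomal protein relative, had 402 and 433 FPKM. Pcbp1, an RNA-binding protein, had 651 FPKM in MII oocytes and 356 FPKM in ES cells, Trim28, the corepressor of KRAB zinc finger proteins, 323 and 458 FPKM, and Snrpd3, a core spliceosome protein, 434 and 304 FPKM. With Npm1, Eif5a, Ywhae, Polr2f, Cnbp, Ppib, Prdx2, Mlf2 and Cox8a these make up the first 14. With equal sums Eif5a, Ywhae, Trim28, Npm1 and Cox8a of them were lower. Of all genes compared the 87 are 0.684%. Replication supplied 4 of them, 10.8% of its list. Maternal-effect genes, histone variants and chaperones, oxidative phosphorylation, the proteasome, initiation factors and ribosome assembly had 2 each, which is 11.1%, 8.7%, 2.86%, 6.45%, 5% and 6.25% of those lists in this order.

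A like level at the ends did not mean a flat course. Of the 87, 25 stayed at 100 FPKM or more in all 5 culture groups. The lowest value of the route lay in secondary follicle oocytes for 57 genes, in reaggregated PGCLCs for 18, in day 6 PGCLCs for 4, in MII oocytes for 6 and in ES cells for 2. These counts and the 25 are as deposited and were not taken again with equal sums, so near ties between groups could move. Npm1, nucleophosmin, took the values 483, 380, 335, 55.2 and 300 FPKM from ES cells through both PGCLC groups and secondary follicle oocytes to MII oocytes. With equal sums the ends of Npm1 differed by -1.57, past 2-fold. Pcbp1 was lowest in reaggregated PGCLCs, at 178 FPKM.

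The 4 steps of the route add up to each difference, and for most genes the largest was into an oocyte stage. For genes higher in MII oocytes, the largest step was the one into MII in 2200 (50.3%), into secondary follicle oocytes in 1814 (41.5%), into day 6 PGCLCs in 260 (5.94%) and into reaggregated PGCLCs in 100 (2.29%). With equal sums the first places changed, at 1242 (38.5%) into MII and 1550 (48%) into secondary follicle oocytes. For genes lower in MII oocytes the largest step was into MII in 2214 (41.8%), into secondary follicle oocytes in 2008 (37.9%) and into day 6 PGCLCs in 892 (16.8%). With equal sums it was into MII in 3032 (46.5%), into secondary follicle oocytes in 2523 (38.7%) and into day 6 PGCLCs in 850 (13%).

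The lists took different steps. Medians in log2(FPKM + 1) are given from ES cells through day 6 PGCLCs, reaggregated PGCLCs and secondary follicle oocytes to MII oocytes. Egg coat and secreted genes had medians of 0.36, 0.35, 0.51, 9.64 and 9.30, so the difference was there at the secondary follicle. Naive pluripotency genes went down in each of the first 3 steps, at 6.69, 5.47, 4.38, 1.29 and 2.01. Germ cell genes were already up in day 6 PGCLCs, with 0.86, 3.48, 4.14, 4.52 and 3.49. Oxidative phosphorylation genes made their largest step into MII, at 7.28, 7.08, 6.91, 6.15 and 3.94, and so did proteasome genes, at 6.81, 6.77, 6.34, 6.36 and 4.26. Small-subunit ribosomal genes went down in both oocyte steps, with 6.64, 6.54, 6.46, 3.59 and 1.90. With equal sums the largest step of each of these lists was the same one.

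**Figure D5:**
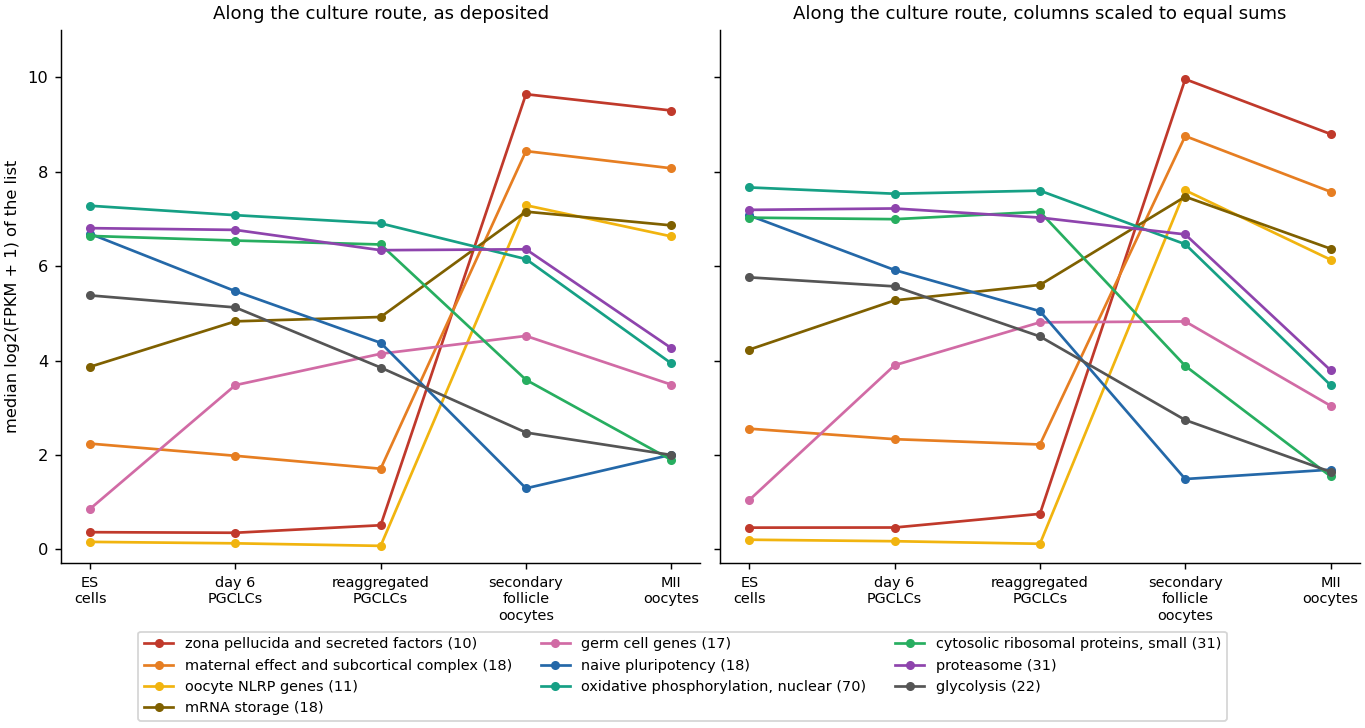
Median log2(FPKM + 1) (y axis) of 10 gene lists along the culture route from ES cells to in vitro MII oocytes (x axis), as deposited on the left and with columns scaled to equal sums on the right, with the number of genes in brackets. Egg coat and secreted genes climb to 9.64 in secondary follicle oocytes, while oxidative phosphorylation genes drop to 3.94 in MII oocytes.

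Markers of other cells were looked at because the oocytes grew among gonadal somatic cells. Of 21 markers of granulosa and cumulus cells, 8 of the 15 measured were higher and 2 lower in MII oocytes (7 and 4 with equal sums). Their summed level was 90.3 FPKM in MII oocytes and 29.4 FPKM in ES cells, 0.0146% and 0.00885% of each column, and 2 markers were listed at 0 in MII oocytes and 5 in ES cells. The highest were Cyp19a1, aromatase, with 27.1 FPKM in MII oocytes and listed at 0 in ES cells, and Inha, an inhibin subunit, with 19.3 and 0.27 FPKM. The 2 lower as deposited were Amhr2, with 0.353 FPKM in MII oocytes and 3.99 FPKM in ES cells, and Amh, with 0.0509 and 1.24 FPKM. Gonadal stroma markers were 3 higher and 3 lower of 6 measured (2 and 3 with equal sums), with sums of 98.2 FPKM in MII oocytes and 354 FPKM in ES cells, in ES cells mostly Vim and Fn1. Of 7 measured primitive endoderm markers 5 were higher and 2 lower (4 and 2 with equal sums), led by Lamb1 with 871 FPKM in MII oocytes and 2.41 FPKM in ES cells. Of 7 measured trophoblast markers 1 was higher and 2 lower (1 and 3 with equal sums). Of 3 measured markers of blood and endothelium 2 were higher and 1 lower, but 0 and 1 with equal sums. The part of such cells in the differences above was not tested.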

How the data were processed

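Poly(A) RNA of 23 samples in 8 groups was sequenced with directional libraries on a HiSeq2000, and 3 samples of in vitro MII oocytes and 3 of ES cells enter the comparison. The deposited table gives FPKM, made by the authors per gene symbol with 1 value per group. Per the submitters' processing notes, TopHat2, Bowtie2 2.0.13, Cufflinks, Cuffdiff 2.2.1 and the genome mm10 were used. No source used here states how the 3 samples were combined. Depth is unknown, so no interval is given.

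Differences of log2(FPKM + 1) were computed over genes with 1 FPKM or more in either group, as deposited and with columns scaled to the mean of the column sums (Python 3.11.15, pandas 2.3.3, NumPy 2.4.6). The calling rule was run on values simulated from the ES cell column with set fold changes. That run checks the arithmetic and not how accurate the calls are in these data. The comparison and its 42 gene lists (916 of 930 symbols found) were chosen with earlier results of these data known. Named by rule were the 14 largest differences on each side with at least 10 FPKM and no predicted or clone symbol, up to 4 called members per list and side, the 14 shared genes with the highest lower value, the genes of the 26 pairs and a fixed set of markers. Oosp2, Tdgf1, Rplp1, Tle6, Ooep, Orc2, Orc3, Orc4, Syce1, Nlrp4c, Zfp57, Mcm2, Mcm3, Mcm4, Mcm6, Mcm7, Dnmt1, Pcgf1, Phc1, Ezh2, Suz12, Eed, Nr0b1, Eif3i, Sdha, Gapdh and Eno1 fall outside it in the uses made of them here or were picked after their values were seen. Promoters are from RefSeq (GRCm38.p6), and lengths are of the longest transcript per gene in GENCODE M21. Alternatives were other pseudocounts, filters, scalings and thresholds. Some genes are not reported here.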

Additional observations from a re-analysis of the deposited data

How the results depend on the processing

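The calls rest on 1 value per group, so precision cannot be stated, and depth is unknown. The count of higher genes was 2765 without a pseudocount over genes at 1 FPKM or more in both groups and 2690 at a 4-fold threshold, against 4374 as reported. The count of lower genes was 2940 and 3220 under the same settings, against 5299. At 50 FPKM as the high level 260 genes were shared, against 87. These settings take fewer genes, a stricter threshold or a looser one by construction. With the remaining alternatives (pseudocounts of 0.1 and 5, a filter of 5 FPKM or none, equal sums with and without the 100 highest genes, quantile normalization, median centring) all 3 counts stayed within 1.5 times. Of 30 list medians past 2-fold, 18 stayed so in every alternative. Without a pseudocount the sign turned for general pluripotency (0.0028), two-cell state genes (-5.96), granulosa and cumulus cells (-0.36), primitive endoderm (-2.48) and blood and endothelium (-0.23), and with a filter of 5 FPKM for two-cell state genes (-0.55) and blood and endothelium (-0.12). Both settings leave fewer genes in each list. Of 309 named genes past 2-fold, 270 stayed so in every alternative, 0 reversed, and 39 fell inside 2-fold in at least 1, mostly with a pseudocount of 5 (30) or equal sums (18). No paired analysis was possible because the table holds 1 column per group with no replicate number. Leaving out replicates was not run for the same reason.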

Other observations

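Levels alike at both ends could hide a detour. Of 1223 genes with 10 FPKM or more at both ends and inside 2-fold, 119 dipped by 4-fold or more in between. Of these, 83 had their lowest point in secondary follicle oocytes. The depth of 57 dips held with equal sums, but whether their ends still lay inside 2-fold was not asked again. These genes were chosen after their values were seen. Uhrf1, the DNMT1 partner, ran from 123 FPKM in ES cells through 7.26 in day 6 PGCLCs, 11.1 in reaggregated PGCLCs and 304 in secondary follicle oocytes to 167 in MII oocytes. Rrm2, the inducible subunit of ribonucleotide reductase, ran through 177, 126, 64.6, 8.86 and 148 FPKM in the same groups, so it was lowest in the growing oocyte. With equal sums its ends differed by -1.14, past 2-fold. Pnma5 had 102, 4.88, 2.6, 0.729 and 68 FPKM. A rise of 4-fold or more above both ends and a return was seen in 26 genes. Of these, 23 had their peak in secondary follicle oocytes. The height of the rise held for 25 with equal sums, again without a new check of the ends. Nsf, Lgals1, Tcn2 and Ooep both dipped and rose by 4-fold or more, and they are counted in both sets.

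Genes for amino acid supply were counted from lists written after Asns and Psat1 were seen among the 14 lowest genes. Both are themselves counted among the 25 genes below. The background is 41.7% of all genes lower and 34.4% higher (51.2% and 25.4% with equal sums). Of 25 genes of amino acid synthesis, import and their ATF4 control, 21 were lower in MII oocytes and 2 higher (22 and 1 with equal sums). Their median difference was -3.19 (-3.76 with equal sums). Phgdh, the first enzyme of serine synthesis, had 0.0736 FPKM in MII oocytes and 20.2 FPKM in ES cells, and the neutral amino acid transporter Slc1a5 had 0.236 and 121 FPKM. Slc7a11, the cystine transporter that feeds glutathione synthesis, stood on the other side with 146 FPKM in MII oocytes and 0.21 FPKM in ES cells. Mthfd2, a mitochondrial folate enzyme, had 261 FPKM in MII oocytes and 78 FPKM in ES cells, inside 2-fold with equal sums. Atf4 itself had 58.6 FPKM in MII oocytes and 314 FPKM in ES cells. Cytosolic tRNA synthetases were lower in 18 of 20 (18 also with equal sums), with a median of -2.81 (-3.64), and Farsb and Wars were inside 2-fold.

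The enzymes that burn pyruvate were less uniform than those of the respiratory chain. Of 17 genes of pyruvate dehydrogenase and the citric acid cycle 9 were lower and 2 higher (12 and 1 with equal sums). Of all genes 41.7% were lower and 34.4% higher (51.2% and 25.4% with equal sums). The median of the 17 was -1.05 (-1.91 with equal sums). Idh3g, a subunit of isocitrate dehydrogenase, had 1.58 FPKM in MII oocytes and 179 FPKM in ES cells. Cs, citrate synthase, had 178 FPKM in MII oocytes and 94.3 FPKM in ES cells, and Pdhx, which anchors a subunit of the pyruvate dehydrogenase complex, had 121 and 12.3 FPKM.

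By chromosome, X had the largest share of lower genes, 53.8% of 463 against 41.7% of all genes compared, with 25.7% higher against 34.4%. With equal sums 63.3% of X genes were lower against 51.2%. Chromosome 17 was close to it, with 52.3% lower of 625, so the X was not alone at that end.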
